A study of Mus musculus with 10 samples.

Results

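The conjugating enzymes of the liver were taken as every gene whose array symbol belongs to the Ugt1 to Ugt3, Sult, cytosolic Gst or Mgst families and that had a probe set assigned to that gene alone. By this rule 48 of 19935 measured genes were members: 8 Ugt2, 2 Ugt3, 16 Sult, 19 cytosolic Gst and 3 Mgst genes. They were read in liver total RNA of mice aged 12 weeks on whole-transcript arrays, 1 array per liver, with 5 wild-type (WT) livers and 5 livers of mice without nucleomethylin (NML-KO), the nucleolar protein encoded by Rrp8. The labels give neither the part of Rrp8 removed nor strain, sex, litter or hour of dissection, so p-values measure the spread between these 10 livers. A second comparison sorted the livers by Dbp, a clock-controlled transcription factor: Dbp-high livers (log2 intensity above 8) were WT 1, WT 2 and NML-KO 1, 2 and 3, with values from 9.68 to 10.23. Dbp-low livers were WT 3, 4 and 5 and NML-KO 4 and 5, with values from 6.20 to 6.60. These sets are no label of the study. They come from a transcript measured on the same arrays, so differences between them describe how members sorted with Dbp and not the effect of a treatment.

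Conjugation makes drugs, hormones, bilirubin and bile acids water-soluble so that they leave the hepatocyte in bile or blood. Ugt enzymes, in the membrane of the endoplasmic reticulum, add glucuronic acid or another sugar from a UDP-sugar, Sult enzymes add sulfate from the donor PAPS in the cytosol, and Gst enzymes add glutathione to reactive electrophiles or use it to reduce peroxides. In mouse liver many of these genes differ between males and females, and the transcription factors DBP, TEF and HLF are known to drive a daily rhythm of detoxification genes.

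The arrays had similar overall signal, and with 5 per genotype their number sets the precision. Rrp8 was 7.65 to 7.90 in WT and 6.65 to 7.19 in NML-KO livers, with no overlap (log2 difference -0.88, SE 0.10). Its two-sided exact permutation p was 0.0079, the smallest that 5 against 5 can give, and its limma adjusted p was 0.109. With 1 liver left out the limma adjusted p was 0.0171 without NML-KO 4 and 0.178 to 0.586 without any other. Which part of the gene the probes read is unknown. Hepatocyte markers were high in every liver (list means 13.46 to 13.56). The Y-linked gene Eif2s3y (8.08 to 8.54) and Xist (4.60 to 4.99) were alike in all livers. WT 2 and NML-KO 4 stood apart in male-biased genes: Cyp7b1 was 10.18 in WT 2 and 10.25 in NML-KO 4 against at least 11.56 elsewhere, and Cyp2d9 was 10.58 and 10.96 against at least 11.42. WT 2 was also the only liver with high fat markers, Plin1 at 7.52 and Fabp4 at 8.55 against at most 5.81 and 7.06 elsewhere. Values without both of these livers are therefore given beside the results.

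Of the 48 members, 35 had a mean log2 intensity of 6 or more. The 13 below 6 were 10 of the 16 Sult genes together with Gstt4, Gsto2 and Mgst2, and whether their signal was above background is unknown, since the values carry no detection call. All 10 Ugt members had means from 7.24 to 12.63. In the Sult families, Sult1a1, Sult1b1, Sult1c2, Sult1d1, Sult2a8 and Sult5a1 lay above 6 (means up to 11.13), while the estrogen sulfotransferase gene Sult1e1 stayed between 4.31 and 4.65 in all livers. The pi class gene Gstp1 was 13.77 ± 0.15 (SD, n = 5) in WT and 13.68 ± 0.14 (SD, n = 5) in NML-KO livers, and Mgst1, which encodes a membrane-bound glutathione transferase, 13.33 ± 0.15 (SD, n = 5) and 13.35 ± 0.06 (SD, n = 5). A further 11 probe sets of these families were assigned to several genes and were left out, among them the probe set shared by the Ugt1a genes, so that no Ugt1 gene is included.

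**Figure D1:**
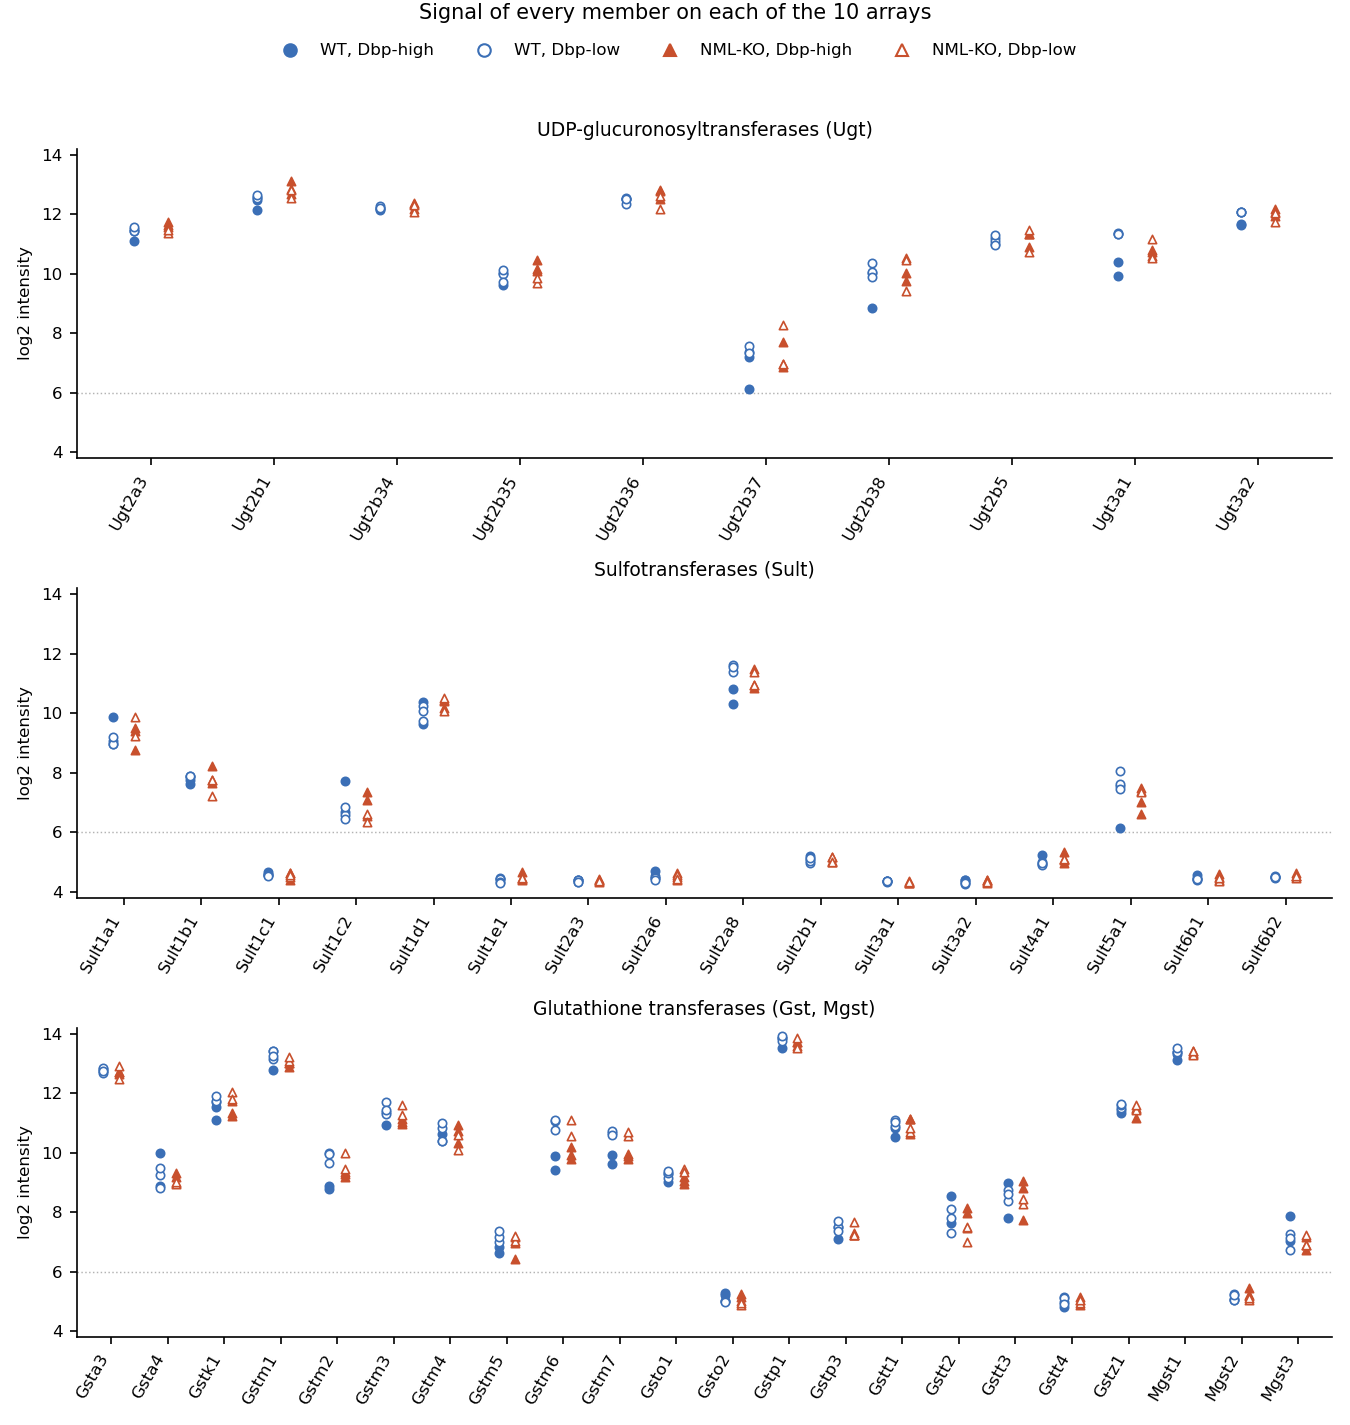
Log2 intensity of all 48 members (vertical axis) on each of the 10 arrays, with WT as blue circles, NML-KO as red triangles, Dbp-high livers filled and Dbp-low livers open. The dotted line marks a log2 intensity of 6, below which 13 members lie; genotypes overlap for every member, and filled and open symbols separate for Gstm2, Gstm6 and Gstm7.

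Loss of nucleomethylin was not accompanied by a change past the threshold in any conjugating enzyme. By limma with Benjamini-Hochberg adjustment over all genes, 0 of the 48 members passed an adjusted p of 0.05, as did 0 of 19935 genes (0%), and 1 member had an unadjusted p below 0.05, against 2.7% of all genes. That member was higher in NML-KO livers, as were 1.05% of genes at that p, and no member was lower, against 1.66%. When 1 liver was left out, this count ran from 0 (without NML-KO 3) to 3 (without NML-KO 4). Without both WT 2 and NML-KO 4 it was 4, namely Ugt2b1, Ugt2b36 and Sult1d1 above 0 and Sult5a1 below 0 (8.33% of members, beside 6.02% of all genes in that fit). No member had genotypes without overlap, against 0.406% of all genes. Of the members 22 were higher and 26 lower in NML-KO livers, with a median log2 difference of -0.017, beside -0.0065 over all genes. The median was 0.0042 without both WT 2 and NML-KO 4 and 0.0029 after quantile normalization, so it had no stable sign. In whole liver, fewer cells of a type and less RNA per cell cannot be told apart in any of these differences.

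Within that spread the families leaned in different ways. All 8 Ugt2 genes, which lie in a cluster on chromosome 5, had differences above 0, from 0.043 for Ugt2b5 to 0.32 for Ugt2b1 (median 0.15), also after quantile normalization and median centring. Over all genes 46.6% of differences lay above 0. The values cannot show whether a probe read more than 1 gene of the cluster. By Dbp set, the Ugt2 median was 0.38 in Dbp-high livers, with 8 of 8 above 0, and -0.041 in Dbp-low livers, with 2 of 8 above 0. It also moved with single livers, to 0.068 with 6 of 8 above 0 without WT 2, to 0.068 with 7 of 8 above 0 without NML-KO 1, and to 0.22 without NML-KO 4; without both WT 2 and NML-KO 4 it was again 0.15. All 7 Gstm genes had differences below 0, from -0.17 for Gstm1 to -0.014 for Gstm2 (median -0.13), but with the Dbp set as a term in the model their median was 0.030 with 4 of 7 above 0, and after quantile normalization 1 of the 7 was above 0. When 1 liver was left out, the Gstm median ran from -0.26 without WT 1 to -0.027 without WT 4, and without NML-KO 1 it was -0.032 with 3 of 7 above 0. The 16 Sult genes divided into 8 above and 8 below 0. Of the 19 cytosolic Gst genes 16 lay below 0 (median -0.078), and 14 did after quantile normalization (median -0.059). That lean also rested on single livers: 10 of 19 lay below 0 without NML-KO 1 (median -0.032), and the median was -0.030 without WT 4, -0.049 without WT 5 and -0.14 without WT 1 or without NML-KO 5. With the Dbp set as a term 11 of 19 lay below 0 (median -0.033), and without both WT 2 and NML-KO 4 there were 13 (median -0.086).

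Ugt2b1, a liver glucuronosyltransferase gene for phenols and steroids (probe set 10531041), had the smallest genotype p of all members. Its log2 intensities were 12.46, 12.15, 12.58, 12.55 and 12.64 in WT 1 to WT 5 and 12.84, 12.66, 13.10, 12.54 and 12.80 in NML-KO 1 to NML-KO 5. NML-KO 4 lay inside the WT range and the other NML-KO livers lay above it, and WT 2 was the lowest liver. The difference was 0.32 (SE 0.12, 1.24-fold, 95% confidence interval 0.051 to 0.58), with an unadjusted p of 0.0240 and a limma adjusted p of 0.9995. It was 0.57 in Dbp-high and 0.083 in Dbp-low livers. When 1 liver was left out it ran from 0.23 without WT 2 to 0.38 without NML-KO 4. Its promoter is shown because it is 1 of 2 member promoters that hold the D-box letters bound by DBP, TEF and HLF. The 250 bases before its start in RefSeq (GRCm38.p6, chr5:86926504-86926753, minus strand) are printed in the direction of transcription, with the match to TTATGNAA, 59 bases before the start on the opposite strand, in capitals.
Ugt2b1: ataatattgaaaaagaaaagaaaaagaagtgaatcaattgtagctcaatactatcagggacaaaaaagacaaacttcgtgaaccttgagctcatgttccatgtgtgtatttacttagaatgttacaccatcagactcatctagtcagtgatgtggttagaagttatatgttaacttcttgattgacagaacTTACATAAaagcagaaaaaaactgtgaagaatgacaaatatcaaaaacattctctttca
Between Dbp-high and Dbp-low livers Ugt2b1 had a difference of -0.045 (SE 0.12, limma adjusted p = 0.851). Its Dbp-low values all lay within the range of its Dbp-high values.

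Among the other families the member with the smallest genotype p stayed further from any threshold. Sult1d1, a sulfotransferase gene for catecholamines (probe set 10531100), was 9.65, 10.39, 10.25, 10.08 and 9.72 in WT and 10.41, 10.16, 10.45, 10.08 and 10.50 in NML-KO livers. NML-KO 1, 3 and 5 lay just above the WT range and NML-KO 2 and 4 within it, and the difference was 0.30 (SE 0.15, unadjusted p = 0.0750 by limma). It was 0.45 without both WT 2 and NML-KO 4 (unadjusted p = 0.0129 by limma). Gstm1, a mu class glutathione transferase gene, differed by -0.17 (SE 0.12), with 13.20 ± 0.27 (SD, n = 5) in WT and 13.03 ± 0.13 (SD, n = 5) in NML-KO livers. Sult4a1, best known from brain and dim here, differed by 0.11 (SE 0.085). Mgst3, a microsomal glutathione transferase and peroxidase gene, differed by -0.22 (SE 0.19), and 1 liver, WT 2 at 7.88, lay above all others. Without WT 2 the Mgst3 difference was -0.056, and without both WT 2 and NML-KO 4 it was -0.12.

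The alpha, pi, theta, zeta, kappa and omega class genes gave intervals that bound the change. Gsta3, an alpha class gene, differed by -0.078 (95% confidence interval -0.25 to 0.091; -0.018 without both WT 2 and NML-KO 4), and Gstp1 by -0.093 (-0.29 to 0.10). Gstz1, which also isomerises maleylacetoacetate in tyrosine breakdown, differed by -0.066 (-0.26 to 0.13). Gstk1, the kappa class enzyme of mitochondria and peroxisomes, differed by 0.036 (-0.37 to 0.45), and Gsto2, an omega class gene, by -0.052 (-0.25 to 0.14). Gstt2, a theta class gene with a wide spread (7.01 to 8.54), differed by -0.26 (-0.83 to 0.32; 0.061 without both of those livers), while Gstt1 differed by 0.0015 (-0.29 to 0.29). Sult2b1, the cholesterol sulfotransferase gene, was dim and differed by -0.018 (-0.15 to 0.12). The signs of the differences of Gstk1, Gsto2, Gstz1, Gstt2, Sult2b1 and Mgst3 turned under some alternatives.

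**Figure D2:**
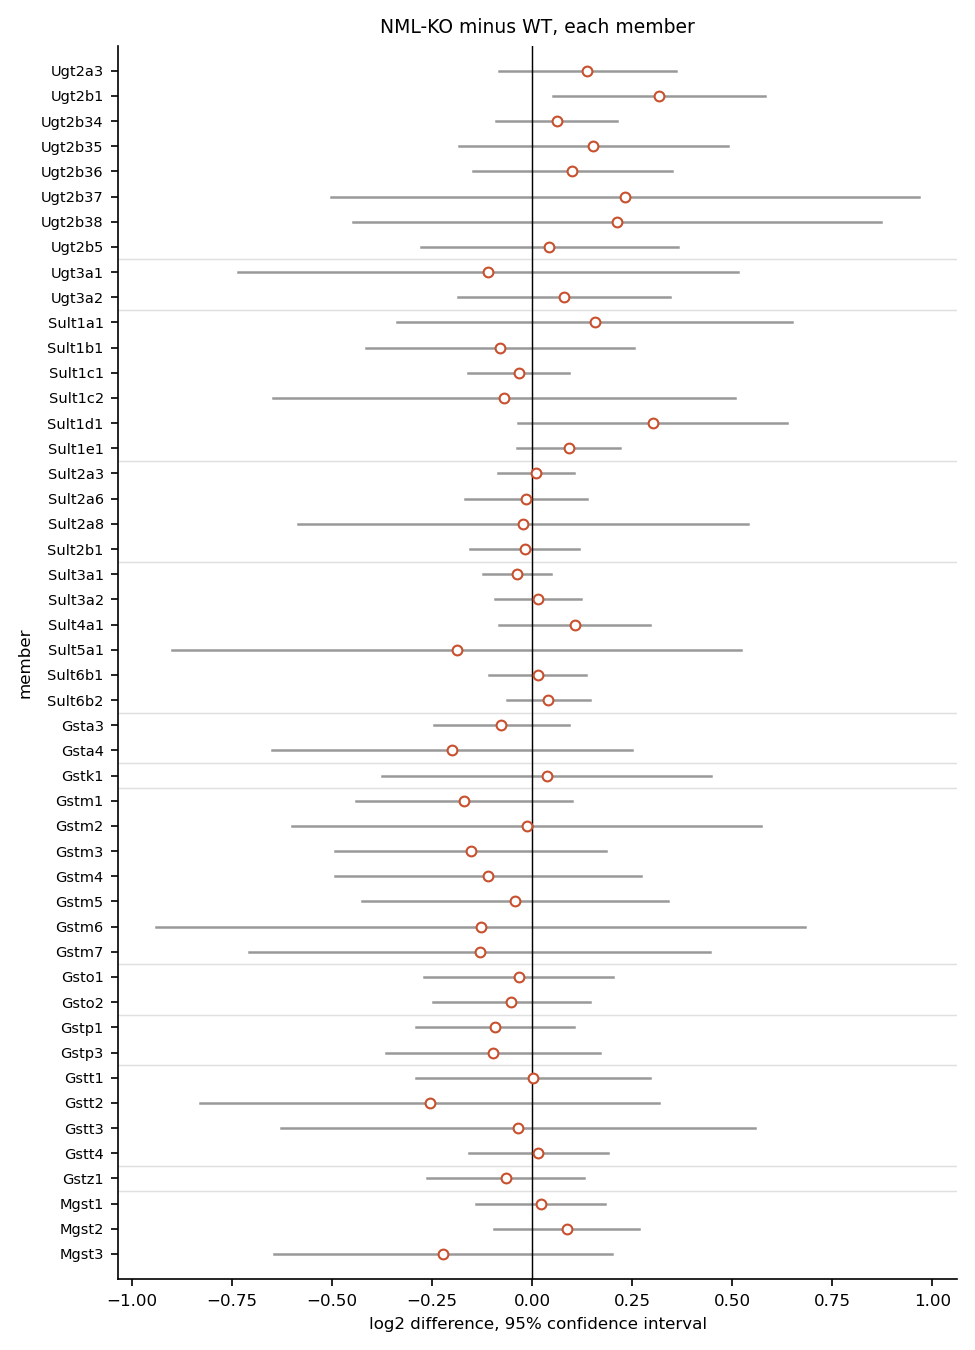
Log2 difference of each member, NML-KO minus WT (horizontal axis), with its 95% confidence interval from limma; open points did not pass the threshold and faint lines part the families. The interval of Ugt2b1, from 0.051 to 0.58, is the only one that leaves out 0, and all 8 Ugt2 points lie right of 0 and all 7 Gstm points left of it.

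Between Dbp-high and Dbp-low livers, with genotype as a term in the model, 5 of the 48 members passed a limma adjusted p of 0.05 (10.4%), below the 12.9% of all genes that did. All 5 were cytosolic Gst genes: Gstm7, Gstm6, Gstm2 and Gstk1 fell in Dbp-high livers and Gsto2 rose. The 4 lower members were 8.33% of the group, beside 7.99% of all genes called lower, and the 1 higher member 2.08%, beside 4.92%. No Ugt, Sult or Mgst gene passed. At an unadjusted p below 0.05 there were 12 of 48 members, against 26.9% of all genes. Without both WT 2 and NML-KO 4 there were again 5 members, but Gstm3 and Ugt3a1 stood in place of Gstk1 and Gsto2, and 10.4% of members were called beside 8.84% of all genes. Over all members the median difference was 0.0027, beside 0.024 over all genes. It was -0.081 over the 35 members with a mean of 6 or more. Without NML-KO 4 the median of all members was -0.074, and without both WT 2 and NML-KO 4 it was -0.084, or -0.20 over those 35, beside 0.026 over all genes.

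The mu class holds cytosolic enzymes that join glutathione to aromatic electrophiles and epoxides. The 3 mu class genes that fell lie close together: in the RefSeq order on chromosome 3 the cluster runs Gstm5, Gstm7, Gstm6, Gstm3, Gstm2, Gstm1, Gstm4. Gstm7 (probe set 10501199) was 9.62, 9.92, 9.77, 9.89 and 9.95 in the Dbp-high livers WT 1, WT 2 and NML-KO 1, 2 and 3. It was 10.67, 10.72, 10.58, 10.56 and 10.69 in the Dbp-low livers WT 3, 4 and 5 and NML-KO 4 and 5. All Dbp-high values lay below all Dbp-low values, and each set was narrow whatever the genotype. Gstm7 was 1.76-fold lower in Dbp-high livers (log2 difference -0.82, SE 0.074, limma adjusted p = 1.5e-04), with -0.89 within WT and -0.75 within NML-KO livers.

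Gstm6 (probe set 10501208) had the widest difference of any member, 2.13-fold (log2 difference -1.09, SE 0.16, limma adjusted p = 0.0019). Its values were 9.42, 9.88, 9.78, 9.92 and 10.20 in Dbp-high livers and 11.06, 11.09, 10.76, 10.56 and 11.10 in Dbp-low livers, in the same order of livers. The sets did not overlap, and the gap was narrowest between NML-KO 3 and NML-KO 4. Gstm2 (probe set 10501222) was 8.89, 8.79, 9.19, 9.34 and 9.28 in Dbp-high livers and 9.67, 9.998, 9.96, 9.44 and 9.99 in Dbp-low livers, again without overlap but with NML-KO 4 close to the Dbp-high livers. The Gstm2 difference was -0.74 (SE 0.14, 1.67-fold, limma adjusted p = 0.0084), with -1.04 within WT and -0.45 within NML-KO livers. These 3 genes were the only members without overlap between the sets, and 7.12% of all genes lay wholly lower in Dbp-high livers; no member lay wholly higher, against 5.04%. All 3 kept an adjusted p below 0.05 when any 1 liver was left out, when WT 2 and NML-KO 4 were both left out, and within WT livers, whereas within the 5 NML-KO livers only Gstm7 did.

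**Figure D3:**
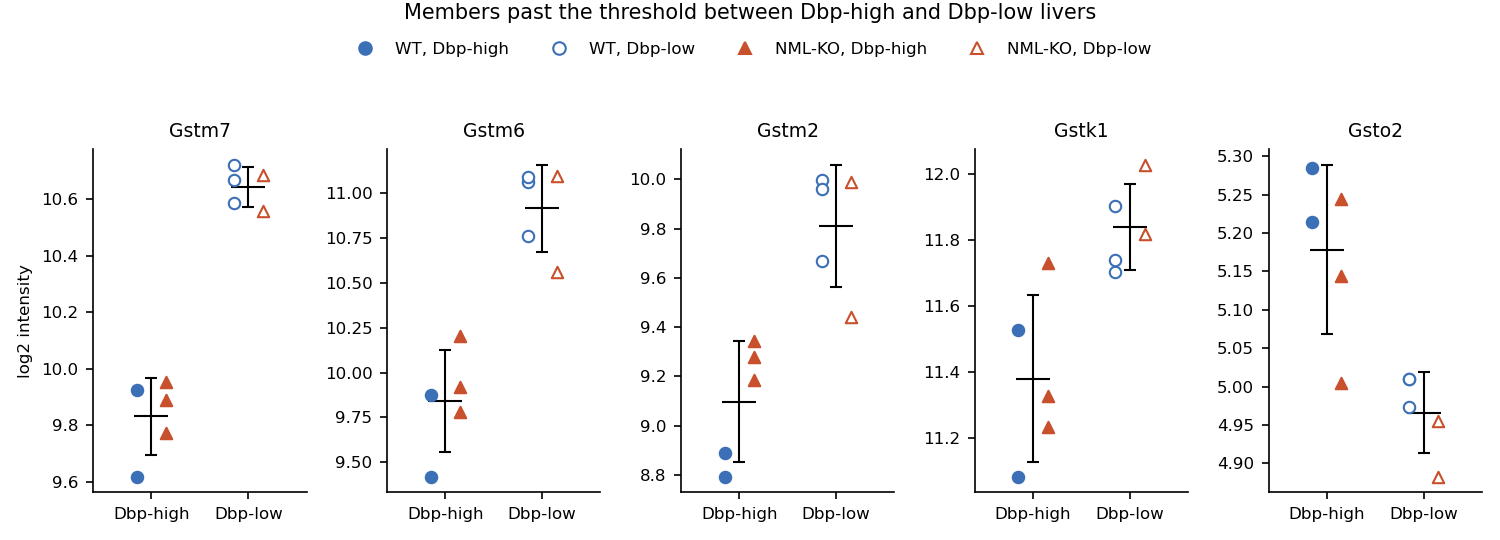
Log2 intensity (vertical axis, a separate scale for each gene) of the 5 members past the threshold, in 5 Dbp-high and 5 Dbp-low livers; the cross bar is the mean and the whiskers 1 SD, and 2 WT values of Gsto2 coincide. Gstm7, Gstm6 and Gstm2 do not overlap between the sets, while Gstk1 and Gsto2 do.

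Because these 3 genes of 1 cluster fell together, their promoters are printed, each the 250 bases before the RefSeq start (GRCm38.p6, minus strand) in the direction of transcription: Gstm7 at chr3:107931818-107932067, Gstm6 at chr3:107953467-107953716 and Gstm2 at chr3:107986421-107986670. Capitals would mark matches to the searched letters, and there were none.
Gstm7: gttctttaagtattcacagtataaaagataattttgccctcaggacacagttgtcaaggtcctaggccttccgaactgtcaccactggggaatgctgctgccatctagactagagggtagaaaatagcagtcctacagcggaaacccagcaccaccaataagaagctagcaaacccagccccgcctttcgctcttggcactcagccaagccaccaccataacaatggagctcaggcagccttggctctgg
Gstm6: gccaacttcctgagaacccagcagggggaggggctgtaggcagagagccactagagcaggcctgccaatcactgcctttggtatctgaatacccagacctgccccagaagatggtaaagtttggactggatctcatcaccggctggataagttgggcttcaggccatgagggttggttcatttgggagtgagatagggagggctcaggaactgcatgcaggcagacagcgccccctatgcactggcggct
Gstm2: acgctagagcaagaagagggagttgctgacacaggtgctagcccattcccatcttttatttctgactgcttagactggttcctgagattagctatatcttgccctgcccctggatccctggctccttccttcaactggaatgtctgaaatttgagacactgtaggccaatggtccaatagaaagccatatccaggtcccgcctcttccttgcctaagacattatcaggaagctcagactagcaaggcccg
RefSeq lists 2 starts for Gstm7 and 3 for Gstm6, and the first listed was used for each gene. Both strands of 300 bases, 250 before to 50 after the start, were searched in 44 members that had a promoter and in 27025 genes in all. The E-box CACGTG of CLOCK and BMAL1 was in 0 member promoters and 7.24% of all, and the D-box TTATGNAA was in 2 members, Ugt2b1 and Gstt1, and 3.52% of all. The core AGGTCA of ROR and REV-ERB elements was in 8 member promoters and 16% of all. The core TGACNNNGC of the antioxidant response element, bound by NRF2, was in 3 member promoters, Gsta3, Gstm5 and Mgst1, and 12.5% of all, and a site of the hepatocyte factor HNF1 was in 0 and 0.0629%. A match is only a run of letters, and its absence says nothing of sites elsewhere.

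The rest of the mu class was less uniform. Gstm3 lay at -0.35 (SE 0.11, limma adjusted p = 0.0708) on probe set 10362511, and a second Gstm3 probe set, 10501218, gave -0.73. Gstm3 passed the threshold with the mean of its probe sets, and also, on probe set 10362511 alone, without WT 2, with array weights, with dim genes left out and with no genotype term. Its difference was -0.55 without both WT 2 and NML-KO 4 (limma adjusted p = 0.0181). Gstm5 lay at -0.37 (SE 0.14, limma adjusted p = 0.113) and Gstm1 at -0.19 (SE 0.11, limma adjusted p = 0.332). Gstm5 passed without NML-KO 3. Gstm1 ran from -0.31 to -0.065 when 1 liver was left out, and without both WT 2 and NML-KO 4 it was -0.37 (limma adjusted p = 0.0537). Gstm4, at the end of the cluster, lay at 0.053 (SE 0.18, limma adjusted p = 0.881), with 10.33 to 10.94 in Dbp-high livers and 10.08 to 10.98 in Dbp-low livers. In all, 6 of 7 Gstm differences lay below 0 (median -0.37), also after quantile normalization and median centring. Of the 7, 3 were called, all lower (42.9%, beside 7.99% of all genes called lower and 12.9% called). All 7 lay below 0 without both WT 2 and NML-KO 4 (median -0.55), and Gstm4 was then -0.14. In that fit 4 were called, Gstm3 being the fourth (57.1%, beside 8.84% of all genes). Near-identical sequence among mu class genes could let probes read more than 1 of them, which the values cannot show.

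Gstk1 and Gsto2 passed the threshold less firmly. Gstk1 (probe set 10537712) was 11.08, 11.53, 11.23, 11.33 and 11.73 in Dbp-high livers and 11.70, 11.74, 11.90, 12.03 and 11.82 in Dbp-low livers. Only NML-KO 3 reached the Dbp-low range. The difference was -0.48 (SE 0.12, 1.40-fold, limma adjusted p = 0.0231), nearly the same within WT (-0.48) and within NML-KO livers (-0.49). Its promoter is shown because it is the only one among the 4 members that fell that held any of the letters searched, AGGTCA on the opposite strand 141 bases before the start, in capitals (RefSeq GRCm38.p6, chr6:42245685-42245934, plus strand, 250 bases).
Gstk1: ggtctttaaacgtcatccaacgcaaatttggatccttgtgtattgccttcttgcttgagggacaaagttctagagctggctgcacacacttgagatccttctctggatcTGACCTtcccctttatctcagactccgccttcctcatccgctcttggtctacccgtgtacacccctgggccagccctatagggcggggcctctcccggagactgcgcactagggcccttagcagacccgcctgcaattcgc
Gsto2, whose enzyme also reduces dehydroascorbate (probe set 10463844), was 5.28, 5.21, 5.14, 5.00 and 5.25 in Dbp-high and 5.01, 5.01, 4.97, 4.88 and 4.95 in Dbp-low livers. NML-KO 2 lay among the Dbp-low livers and the other 4 above them. The rise was 0.23 (SE 0.055, 1.17-fold, limma adjusted p = 0.0217) at a signal below 6. All 13 members below 6 had differences above 0 (median 0.057), and 9 of 13 did after quantile normalization. Neither Gstk1 nor Gsto2 passed after quantile normalization, within either genotype, or when WT 1, WT 5 or NML-KO 4 was dropped (highest limma adjusted p 0.0692 and 0.0610 when 1 liver was left out). Neither passed without both WT 2 and NML-KO 4, with differences of -0.54 and 0.23 (limma adjusted p = 0.0501 and 0.111). Gsto1, the other omega class gene, lay below 0 at -0.24 (SE 0.082, limma adjusted p = 0.0948).

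**Figure D4:**
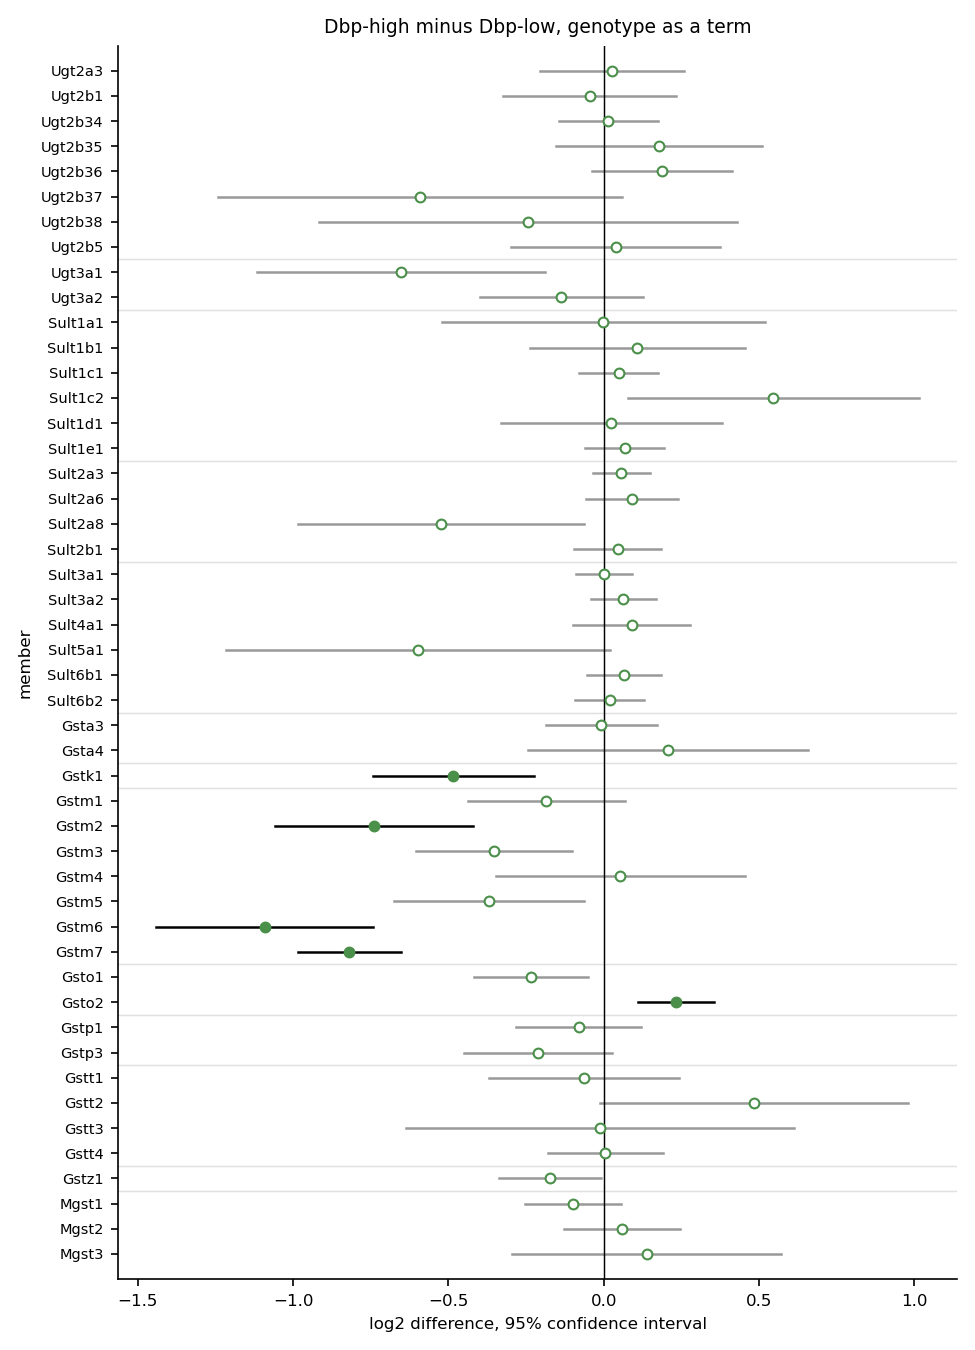
Log2 difference of each member, Dbp-high minus Dbp-low livers with genotype as a term (horizontal axis), with its 95% confidence interval; filled points passed a limma adjusted p of 0.05. The filled points are Gstm6, Gstm7, Gstm2 and Gstk1 left of 0 and Gsto2 right of it, and the Ugt2 genes lie on both sides.

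The Ugt and Sult genes held no call here. The widest was Ugt3a1 at -0.65 (SE 0.21, limma adjusted p = 0.0700), which passed, among other alternatives, without NML-KO 4, within WT livers, and without both WT 2 and NML-KO 4. Sult1c2 lay at 0.55 (SE 0.21, adjusted p = 0.126 by limma) and passed only without WT 1 and with array weights; it was 0.36 without both WT 2 and NML-KO 4. Sult2a8, which sulfates bile acids in mouse liver, lay at -0.53 (SE 0.21, adjusted p = 0.134 by limma). Its values were 10.81, 10.31, 10.94, 10.83 and 11.47 in Dbp-high and 11.62, 11.39, 11.56, 10.94 and 11.39 in Dbp-low livers. WT 2 was lowest and NML-KO 3 lay with the Dbp-low livers, and the difference passed without NML-KO 3, without NML-KO 4 and within WT livers. Sult5a1, a sulfotransferase gene of little-known substrate, lay at -0.60 (SE 0.28, limma adjusted p = 0.200), with WT 2 at 6.13 and all other livers at 6.61 or more. Ugt2b37 lay at -0.59 (SE 0.29, limma adjusted p = 0.229) and Ugt2b38 at -0.24 (SE 0.30, limma adjusted p = 0.651), with WT 2 lowest in both at 6.14 and 8.84. WT 2 was thus the lowest liver in Sult2a8, Sult5a1, Ugt2b37 and Ugt2b38, as in Cyp7b1 and Cyp2d9. Among other members it was also lowest in Ugt2b1, Ugt2b35, Gstm2, Gstp3, Mgst1 and the dim Gstt4. It was highest in Gsta4, Gstt2, Mgst3, Sult1c2 and the dim Sult2b1. The differences of Sult2a8, Sult5a1, Ugt2b37 and Ugt2b38 were fitted again without WT 2 and NML-KO 4. Sult5a1 went from -0.60 to -0.24, while Sult2a8 was -0.51, Ugt2b37 -0.65 and Ugt2b38 -0.20, close to their values over all livers. With 1 liver left out Sult5a1 ran from -0.81 to -0.26, Sult2a8 from -0.71 to -0.33, Ugt2b37 from -0.88 to -0.35 and Ugt2b38 from -0.54 to 0.081.

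The difference between genotypes was also set against the Dbp sets, as an interaction term that is above 0 where NML-KO minus WT was greater in Dbp-high than in Dbp-low livers. By limma 0 of 48 members passed an adjusted p of 0.05, as did 0 of 19935 genes (0%), and the smallest adjusted p of a member was 0.717. At an unadjusted p below 0.05 there were 7 members, beside 6.49% of all genes, and all 7 terms were above 0, beside 2.65% of all genes in that direction and 3.84% in the other. They were Ugt3a1, Ugt3a2, Ugt2a3, Ugt2b1, Ugt2b35, Sult2a8 and Gstm2. All 10 Ugt terms lay above 0 (median 0.45) over the 10 livers, beside 48.6% of all genes. This did not hold without WT 2 and NML-KO 4: 7 of 10 were then above 0 (median 0.15), with Ugt2b37 at -0.88, Ugt2b5 at -0.36, Ugt2b38 at -0.28 and Ugt2b36 at 0.0019. Without WT 2 alone 9 of 10 were above 0 (median 0.28), and without NML-KO 4 alone 7 of 10 (median 0.34). The other way, all 10 stayed above 0 without WT 1 alone (median 0.60) and without NML-KO 5 alone (median 0.65). Only WT 1 and WT 2 were both WT and Dbp-high. Only NML-KO 4 and NML-KO 5 were both NML-KO and Dbp-low. Every term rests on these livers, and a fit without any of them leaves a group of 1 liver. With any other liver left out, the count of members at an unadjusted p below 0.05 by limma was 3 (WT 5) to 7 (NML-KO 2). Without both WT 2 and NML-KO 4 the 7 terms, in the order named, were 0.95, 0.45, 0.56, 0.20, 0.29, 0.41 and 0.27.

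The Ugt3 genes, both on chromosome 15, whose human counterparts use sugars other than glucuronic acid, had differences of opposite sign in the 2 sets. Ugt3a1 (probe set 10423005) was 9.94 and 10.40 in the Dbp-high WT livers, 10.71, 10.60 and 10.81 in the Dbp-high NML-KO livers, 11.37, 11.32 and 11.33 in the Dbp-low WT livers, and 10.52 and 11.16 in the Dbp-low NML-KO livers. NML-KO livers were above WT in the Dbp-high set and below WT in the Dbp-low set, with differences of 0.54 and -0.50 (interaction 1.03, SE 0.27, unadjusted p = 0.0038, limma adjusted p = 0.717). Ugt3a2 (probe set 10423011) was 11.62 and 11.67 in Dbp-high WT, 12.07, 11.93 and 12.16 in Dbp-high NML-KO, 12.09, 12.08 and 12.08 in Dbp-low WT, and 11.73 and 12.05 in Dbp-low NML-KO livers. The 3 Dbp-low WT livers were nearly equal in both genes. The differences of Ugt3a2 were 0.40 and -0.19, and 0.079 (SE 0.12) over all livers (interaction 0.59, SE 0.15, unadjusted p = 0.0032, limma adjusted p = 0.717).

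**Figure D5:**
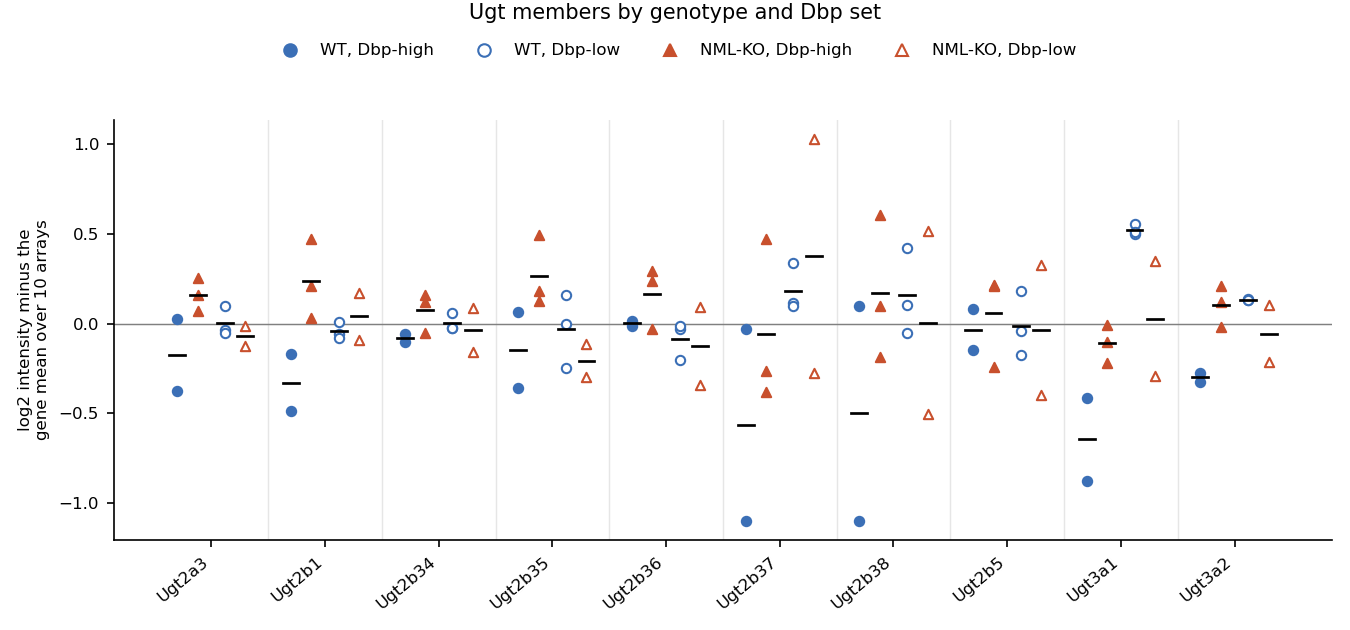
Log2 intensity of each Ugt gene minus its mean over the 10 arrays (vertical axis), for WT and NML-KO livers in the Dbp-high set (filled) and the Dbp-low set (open); short bars are group means. Both Dbp-high WT livers lie below all other livers for Ugt3a1 and Ugt3a2, and WT 2 is the lowest point for Ugt2b1, Ugt2b35, Ugt2b37 and Ugt2b38.

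Genes that supply the donors or carry out other conjugations were read beside the members. Of 36 listed genes 32 were measured, and 0 passed between genotypes. Between the Dbp sets 3 rose and 4 fell, 7 of 32, beside the 12.9% of all genes called, and without both WT 2 and NML-KO 4 there were 3, Bpnt2, Gclc and Nat2. Bpnt2, which clears the by-product of sulfation in the Golgi, rose by 0.99 (SE 0.12, 1.99-fold, limma adjusted p = 8.0e-04). Its values were 8.62, 8.75, 8.97, 8.40 and 8.91 in Dbp-high and 7.61, 7.87, 7.80, 7.86 and 7.54 in Dbp-low livers, without overlap. Gclc, the catalytic subunit of the rate-limiting enzyme of glutathione synthesis, had a difference of -0.63 (SE 0.097, limma adjusted p = 0.0028). It was 11.69, 11.86, 11.87, 11.44 and 11.48 in Dbp-high and 12.38, 12.17, 12.44, 12.26 and 12.33 in Dbp-low livers, also without overlap. Over all genes 7.12% lay wholly lower in Dbp-high livers, as Gclc did, and 5.04% wholly higher, as Bpnt2 did. The arylamine acetyltransferase genes Nat2 and Nat1 fell by 0.33 and 0.24 (limma adjusted p = 0.0159 and 0.0213), Nat1 at a signal below 6. Gclm, the other subunit of the same enzyme, lay at 0.0029 (limma adjusted p = 0.987).

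Of the factors known to act on these genes, Tef rose by 1.69 in Dbp-high livers (SE 0.096, limma adjusted p = 1.2e-05) and Hlf lay at 0.28 (SE 0.12, limma adjusted p = 0.161). The lipid sensor gene Ppara rose by 0.93 (SE 0.090, limma adjusted p = 2.3e-04). The constitutive androstane receptor gene Nr1i3 lay at 0.64 (limma adjusted p = 0.119) and the NRF2 gene Nfe2l2 at -0.23 (limma adjusted p = 0.126). Markers of Kupffer cells, the resident macrophages of liver, moved with the sets too: 7 of 8 were lower in Dbp-high livers (median -0.54), of which Vsig4 (-1.24) and C1qb (-1.25) passed the threshold (limma adjusted p = 0.0257 and 0.0161), and the list mean ran from 7.37 to 8.28 in Dbp-high and from 8.07 to 8.79 in Dbp-low livers. The 8 genes were all lower in NML-KO livers too (median -0.11, 0 called). The part of these cells in the Gst differences was not tested. Of the 7 hepatocyte markers 4 had an unadjusted p below 0.05 between the sets by limma and 2 passed the threshold, Alb higher at 0.21 and Apoc3 lower at -0.56 (limma adjusted p = 0.0090 and 0.0023), while the list means of both sets lay within 13.46 to 13.56. Of the 6 cholangiocyte markers Sox9 was lower at -1.13 (limma adjusted p = 3.8e-04), with 6.497 to 7.11 in Dbp-high and 7.85 to 8.38 in Dbp-low livers. The other 5 lay above 0 and did not pass (median of the 6 markers 0.069), and 4 of the 6 had a mean below 6. The summed linear intensity of the list, Sox9 included, was 326.7 to 377.2 in Dbp-high and 460.5 to 564.6 in Dbp-low livers. That gap follows Sox9, the only one of the 6 markers with a difference below 0. The part of these markers in the Gst differences was not tested either.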

How the data were processed

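Total RNA of 10 mouse livers was labelled with biotin for Affymetrix whole-transcript arrays (from the labels). Deposited by the authors was a table of linear intensity values, 18.4 to 29834, for 28815 probe sets on the 10 arrays. The submitters' processing notes name the mouse build mm8. The background correction, normalization and summary steps were not given in the sources used here. The deposited values were converted to log2 without filtering.

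Of the probe sets, 21780 had 1 gene symbol in the platform table, 1605 several and 5430 none. Symbols were updated by gene ID through RefSeq (assembly GRCm38.p6), which served only for names, gene order and promoters. Of several probe sets the one with the highest mean was kept, leaving 19935 genes. Of the members only Gstm3 had 2 probe sets.

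Sample titles gave each genotype and replicate number. NML-KO against WT, Dbp-high against Dbp-low with genotype as a term, and their interaction were fitted over all genes with limma 3.58.1 (lmFit, eBayes; R 4.3.3), and Benjamini-Hochberg adjusted p-values were held to a threshold of 0.05. Confidence intervals are at 95%. For Rrp8 an exact permutation test was added. The gene fit was tested on simulated data.

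Named genes were, per family, the member with the smallest genotype p, up to 3 past the threshold between the Dbp sets, the member with the highest mean, and all members past a threshold; of the cofactor list, up to 4 past a threshold per comparison. Other genes named, such as the members with an unadjusted interaction p below 0.05, were chosen after their values were seen. The members and lists were chosen with earlier results of these data known. Whether same-numbered arrays of the 2 genotypes were paired is unknown. Correlations of their deviations were 0.44, 0.26, 0.35 and 0.54 for numbers 1, 2, 4 and 5, whose livers share a Dbp set. For number 3, whose livers lie in opposite sets, it was -0.42, so this check cannot part pairing from Dbp set.

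Alternatives were median centring, quantile normalization, array weights, a robust trended prior, dim genes (mean log2 below 6) left out, probe sets of a gene averaged, 16 added before log2, a replicate block, each array left out, fits within sets or genotypes, sets cut by the clock gene Arntl (log2 below 7), and, chosen after seeing the data, WT 2 and NML-KO 4 both left out. The Arntl sets held the same livers as the Dbp sets, so that fit repeats the main fit and is no separate check.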

Additional observations from a re-analysis of the deposited data

Results flagged for a closer look

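Ugt3a1 and Ugt3a2 moved in opposite directions between genotypes in the 2 Dbp sets, with every liver of each genotype on one side. NML-KO minus WT on the log2 scale was 0.54 in Dbp-high livers and -0.50 in Dbp-low livers for Ugt3a1, and 0.40 and -0.19 for Ugt3a2. The interaction did not pass for either gene by limma (adjusted p = 0.717), and the sets hold only 2 WT livers against 3 NML-KO livers in the Dbp-high set and 3 against 2 in the Dbp-low set. Of the 98 groups of 5 values (48 members and Rrp8, in 2 genotypes) 6 had a liver apart from the others by Dixon's test, where chance gives about 1 in 20, and none of these was among the genes named by rule.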

How the results depend on the processing

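Limits: 5 livers per genotype, unknown background in dim members, and Dbp sets that hold 2 or 3 livers of each genotype. The counts of 0 members called for NML-KO against WT and for the interaction held in every alternative run. Genotype also called 0 of all genes in every alternative but the one without NML-KO 4. Its count of 0 members thus had little room to vary and does not show that no member changed. The 5 members called between the Dbp sets became 3 after quantile normalization, 8 with array weights, 1 within NML-KO livers and 0 with the replicate block, and 3 to 7 when 1 liver was left out (3 without WT 5). In the replicate block fit only number 3 has livers in both sets, and over all genes that fit called 2 against 2573. For the other numbers, number and Dbp set cannot be told apart, and whether the numbers pair livers is unknown. Over all genes the count was 256 within NML-KO livers, 1223 within WT livers and 1625 without NML-KO 5. Interaction fits without WT 1, WT 2, NML-KO 4 or NML-KO 5 leave 1 liver in a group, so counts over all genes are omitted. Genotype called 1 gene without NML-KO 4. Rrp8 ranged from -0.96 to -0.82 when 1 liver was left out and passed only without NML-KO 4 (adjusted p = 0.0171 by limma). Without any other single liver its limma adjusted p was 0.178 to 0.586, and with the replicate block it was 0.507. Genotype differences whose sign turned, none of them past a threshold and none with a tested cause, were with array weights Gstk1 at -0.064, Gsto2 at 0.0061 and Ugt3a2 at -0.022. Within Dbp-low livers they were Mgst3 at 0.027, Sult2b1 at 0.036 and Ugt3a2 at -0.19. Without both WT 2 and NML-KO 4 they were Gstk1 at -0.080, Gsto2 at 0.018 and Gstt2 at 0.061. With 1 liver left out Gstk1 ran from -0.091 to 0.13, Gstz1 from -0.11 to 0.0009 and Sult2b1 from -0.047 to 0.0086. No scaling moved the median of all genes by over 0.1.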
